A study of Mus musculus with 42 samples.

Results

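Gene expression in wild-type mouse striatum was compared between animals given an inhibitor of the phosphodiesterase PDE10 and animals given vehicle. The comparison uses the 11 of 42 arrays whose titles put them in wild-type striatum with inhibitor (6 arrays, numbered 10 to 15) or with vehicle (5 arrays, numbered 1 to 5). All mice were of strain C57BL6 and were either wild type (WT) or labelled as PDE10A knockout (KO), and biotin-labelled cRNA from total RNA of dissected, frozen striatum or hippocampus was measured on Affymetrix arrays. The other groups used here are striatum labelled KO with vehicle (5 arrays) or inhibitor (4 arrays), and WT hippocampus with vehicle (6 arrays) or inhibitor (6 arrays). Hippocampus labelled KO with vehicle (5 arrays) or inhibitor (5 arrays) entered the fits that include hippocampus and the choice of genes for an array score. The compound, its dose, the time from dosing to dissection, the age and sex of the mice and the design of the knockout allele were not stated in the sources used here. The labels do not state whether each array stands for a mouse of its own. The p-values therefore rest on array-to-array spread alone, and that spread may be technical.

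PDE10A hydrolyses cAMP and cGMP and is most abundant in the GABAergic projection neurons of the striatum, in both the direct and the indirect output pathway. Inhibition of the enzyme raises both cyclic nucleotides in these cells, which activates protein kinases A and G. Kinase A in turn acts on the phosphatase inhibitor DARPP-32 and on the transcription factor CREB, which binds cAMP response elements in promoters.

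The deposited values are log2 signals, and a difference of 1 log2 unit is a 2-fold difference. Each of 18193 genes was represented by its probe set of highest mean signal. Differences are inhibitor minus vehicle, fitted with limma over the 20 striatal arrays, with standard errors (SE) and Benjamini-Hochberg adjusted p-values over all 18193 genes. A gene is said to rise or fall where its adjusted p was below 0.05.

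The tissue label held on all 11 arrays. Ppp1r1b, which codes for DARPP-32, had a mean log2 signal of 12.60 ± 0.22 (SD, n = 5) on vehicle and 12.78 ± 0.12 (n = 6) on inhibitor arrays, against 8.36 ± 0.30 (n = 6) in WT hippocampus with vehicle. Drd1, the dopamine receptor gene of the direct pathway, lay at 11.62 ± 0.20 and 11.71 ± 0.08, against 7.04 ± 0.46 in the same hippocampal group. The groups of the comparison thus had like levels of these projection neuron genes.

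RNA shortening was read from Gapdh control probe sets, as the log2 signal at the 3' end minus that at the 5' end. The difference was 0.28, 0.18, 0.18, 1.05 and 0.27 on vehicle arrays 1 to 5, and between 0.16 and 0.66 with a median of 0.31 on the inhibitor arrays. Vehicle array 4 stood above every other array of the comparison, and inhibitor array 13 was the highest of its group. The group means differed by -0.04 (exact permutation test over arrays, two-sided, p = 0.797). With 6 against 5 arrays the smallest p this test allows is 0.00433. The same difference for Actb was 0.67 to 1.36 on vehicle and 0.67 to 1.01 on inhibitor arrays, again highest on vehicle array 4. That array also had the lowest mean correlation with its own group, 0.9895, where the other 10 arrays lay between 0.9925 and 0.9945.

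Carryover from neighbouring tissue was read from 11 tested markers of cortical and hippocampal glutamatergic neurons, which the striatum should nearly lack. Their mean log2 signal was 8.14, 8.33, 7.43, 6.76 and 8.39 on vehicle arrays 1 to 5, and ran from 6.57 to 7.94 with a median of 6.90 on the inhibitor arrays. Vehicle arrays 1, 2 and 5 were above all inhibitor arrays, vehicle array 4 lay among the low inhibitor arrays, and inhibitor array 13 was the highest of its group. The means were 7.81 ± 0.70 (SD, n = 5) and 7.01 ± 0.50 (n = 6), a difference of -0.80 (exact permutation test, two-sided, p = 0.0519). Without inhibitor arrays 13, 14 and 15 the difference was -0.94 (exact permutation test, two-sided, p = 0.107, where 0.0357 is the smallest possible). None of the 11 markers passed over all genes, and 10 of them had a negative difference. The lowest p was that of Neurod1, a neuronal transcription factor (-1.07 ± 0.34, SE, adjusted p = 0.253). Slc17a7, the vesicular glutamate transporter of cortical neurons, averaged 8.64 ± 1.42 on vehicle and 7.26 ± 0.87 on inhibitor arrays, against 11.07 ± 0.18 in WT hippocampus with vehicle. Neurod6, a transcription factor of cortical projection neurons, averaged 6.71 ± 1.79 and 4.82 ± 1.41, against 10.72 ± 0.12. Choroid plexus carryover was spread differently: the mean of its 10 tested markers was 8.68 and 8.26 on vehicle arrays 2 and 3, 9.22 on inhibitor array 11 and between 5.61 and 6.37 on the other 8 arrays.

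**Figure D1:**
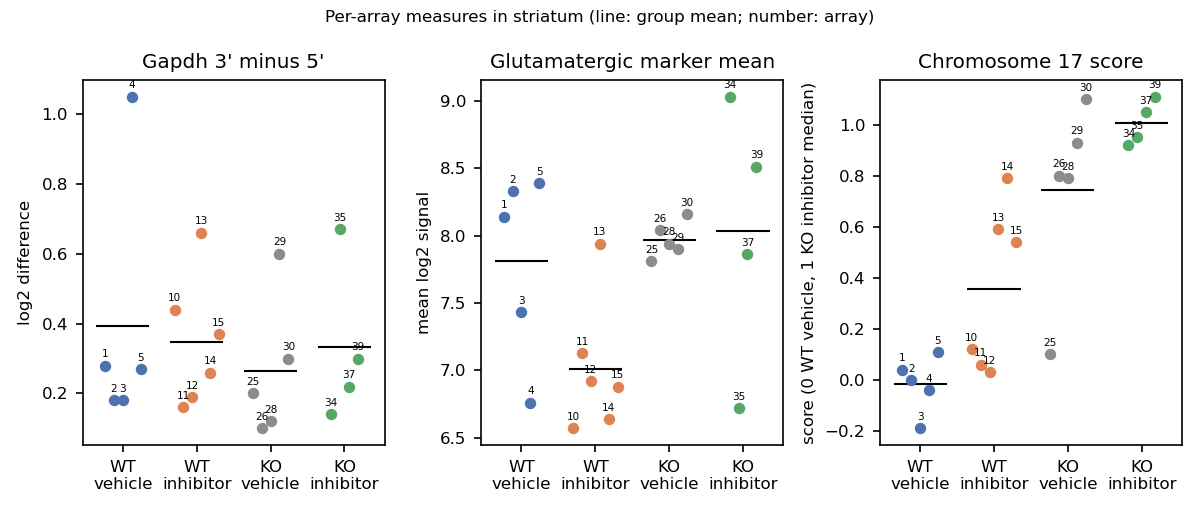
Gapdh 3' minus 5' log2 difference, mean log2 signal of the glutamatergic markers and chromosome 17 score (no unit) for the 20 striatal arrays by group, each point an array with its number and each line a group mean. WT vehicle array 4 has the highest Gapdh difference (1.05), and WT inhibitor arrays 13, 14 and 15 and KO vehicle array 25 have scores across 0.5 from their labelled genotype.

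The genotype label could not be read from the brightest probe set of Pde10a. Its signal was not lower on the striatal arrays labelled KO (with vehicle 12.35 ± 0.22, SD, n = 5, against 12.32 ± 0.26 in WT). The gene's other probe sets are not compared between genotypes here. The label was read from 15 other genes of chromosome 17, the chromosome of Pde10a. For striatal arrays these genes were chosen in hippocampus. The score was scaled so that the median of WT vehicle arrays is 0 and that of KO inhibitor arrays is 1. The 5 WT vehicle arrays scored -0.19 to 0.11. Inhibitor arrays 10, 11 and 12 scored 0.12, 0.06 and 0.03, while inhibitor arrays 13, 14 and 15 scored 0.59, 0.79 and 0.54. Of the arrays labelled KO vehicle in striatum, array 25 scored 0.10 and the other 4 scored 0.79 to 1.10. These 4 arrays, which fell across the limit of 0.5 from their labelled genotype, are called doubted here. The count of genes that passed is given with and without them. For some genes that passed only without them, that difference alone is given. Inhibitor arrays 13 and 15 lay just past the limit of 0.5. Hippocampal arrays were scored in the same way from 15 genes chosen in striatum. In hippocampus 4 arrays also crossed the limit: WT inhibitor 12 (1.04) and 14 (0.79), and KO vehicle 25 (0.00) and 26 (0.11). Fits that use hippocampus without the doubted arrays leave these 4 out as well. Arrays numbered 14 and 25 crossed the limit in both regions, while those numbered 12, 13, 15 and 26 crossed it in a single region. Genes that are named for passing only without the doubted arrays were chosen after their values were seen.

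The 6 inhibitor arrays were of 2 kinds in a principal component analysis of the 11 arrays over all genes. The first component held 24.8% of the variance and had vehicle array 4 at its low end, at -24.36. The second held 22.5%, with inhibitor arrays 10, 11 and 12 at 15.87, 22.13 and 19.70, and inhibitor arrays 13, 14 and 15 at -8.33, -6.23 and -0.44. The vehicle arrays lay between -14.49 and -3.27 on it, so inhibitor arrays 13 and 14 lay within the vehicle range.

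Pde10a did not change with the inhibitor past the threshold. The log2 signal was 12.19, 12.15, 12.56, 12.65 and 12.06 on vehicle arrays 1 to 5 and 12.02, 12.54, 12.43, 12.68, 12.56 and 12.70 on inhibitor arrays 10 to 15, and the groups overlapped. The difference was 0.17 ± 0.16 (SE, adjusted p = 0.842), and 0.01 ± 0.20 (adjusted p = 0.991) without the doubted arrays. The other 4 probe sets of the gene differed by 0.04 to 0.35, none past the threshold.

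Over all 11 arrays, 33 of 18193 genes passed (0.181%), of which 18 rose (0.0989%) and 15 fell (0.0824%). The median difference over all genes was 0.00. In 23 of the 33 genes the arrays of the groups did not overlap, as in 243 of all 18193 genes (1.34%). The median size of the 33 changes was 0.61 on the log2 scale. The count depended on single arrays: it was 18, 17, 9, 15 and 5 without vehicle array 1, 2, 3, 4 or 5, and 14, 6, 11, 29, 73 and 4 without inhibitor array 10, 11, 12, 13, 14 or 15. It was 67 without the array labelled KO vehicle 25, and 11 when the mean of the glutamatergic markers entered the fit. None of the 33 genes changed sign in any of these fits. Nnat, Fam43a and Clspn passed in all 11 fits that left out a single array of the comparison, Col6a2 in 10 and Fst in 9, while Irak3, Hs6st2, Sox17, Tmem68 and Cys1 passed in 1 each.

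**Figure D2:**
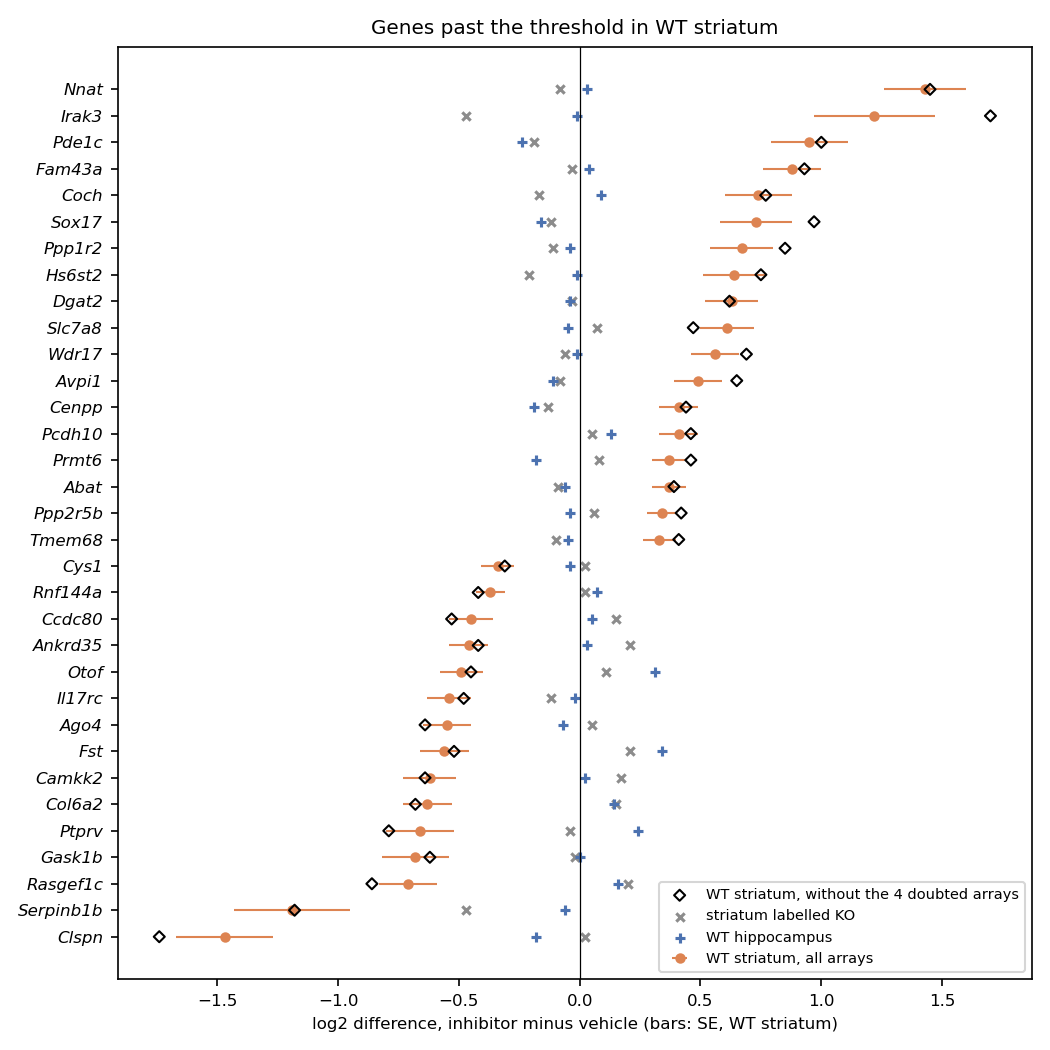
Log2 difference, inhibitor minus vehicle, of the 33 genes past the threshold in WT striatum (filled points, bars are SE), with the same without the 4 doubted arrays (diamonds), in striatum labelled KO (crosses) and in WT hippocampus (plus signs). In KO striatum 8 of the 33 genes and in WT hippocampus 10 had the sign of the WT striatal difference, with all arrays of these groups kept.

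Among enzymes of cyclic nucleotide signalling, Pde1c rose and no other tested phosphodiesterase passed, where 0.0989% of all genes rose. Pde1c codes for a calcium- and calmodulin-dependent phosphodiesterase of cAMP and cGMP. Vehicle arrays 1 to 5 had log2 signals of 7.99, 7.80, 7.97, 8.10 and 7.25, and inhibitor arrays 10 to 15 had 8.79, 8.82, 8.86, 8.83, 8.64 and 8.71. All inhibitor arrays, the doubted ones included, were above all vehicle arrays, and vehicle array 5 was the lowest. The difference was 0.95 ± 0.16, or 1.94-fold (adjusted p = 0.0202), and 1.00 ± 0.20 without the doubted arrays. All 5 of its other probe sets had a positive difference (0.34 to 0.77). Of the 18 phosphodiesterase genes tested besides Pde10a, 9 had a positive difference and the list's median was 0.04. Pde2a, a phosphodiesterase stimulated by cGMP, differed by 0.31 ± 0.13 (adjusted p = 0.447) over all arrays and rose by 0.49 ± 0.10 (adjusted p = 0.0133) without the doubted arrays.

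Of 19 tested genes for protein kinases A and G and for protein phosphatase 1 and its regulators, 1 rose and none fell. The shares over all genes were 0.0989% and 0.0824%. The gene that rose was Ppp1r2, which codes for inhibitor 2 of protein phosphatase 1. Its log2 signal was 11.86, 11.58, 11.73, 11.69 and 11.65 on vehicle arrays 1 to 5 and 12.57, 12.56, 12.53, 12.14, 12.09 and 12.31 on inhibitor arrays 10 to 15. The groups did not overlap, and the 3 doubted inhibitor arrays were lower than the other 3. The difference was 0.67 ± 0.13 (1.59-fold, adjusted p = 0.0356), and 0.85 ± 0.10 without the doubted arrays. Prkacb, a catalytic subunit of kinase A, differed by 0.18 ± 0.09 (adjusted p = 0.582), and by 0.35 ± 0.06 (adjusted p = 0.00315) without them. Ppp2r5b, which codes for a regulatory subunit of protein phosphatase 2A and belongs to none of the lists, rose by 0.34 ± 0.06 (adjusted p = 0.0356) with no overlap between groups, and by 0.42 ± 0.08 without the doubted arrays.

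Calcium signalling genes on the list of calcium- and calmodulin-dependent kinases had a negative difference in 11 of 14 cases, with a median of -0.12. Of the 14 genes 1, Camkk2, fell, where 0.0824% of all genes fell. Camkk2 codes for the kinase that activates CaM kinases I and IV and AMPK. The log2 signal of Camkk2 was 10.29, 10.39, 10.54, 10.85 and 10.85 on vehicle arrays 1 to 5 and 10.02, 9.86, 9.94, 10.24, 9.86 and 9.88 on inhibitor arrays 10 to 15. The groups did not overlap, but inhibitor array 13 and vehicle array 1 lay close to each other. Camkk2 fell by 0.62 ± 0.11 on the log2 scale (1.53-fold, adjusted p = 0.0301), by 0.64 ± 0.14 without the doubted arrays, and passed in 4 of the 11 fits that left out a single array. The list's mean was 10.74, 10.80 and 10.75 on vehicle arrays 1, 2 and 5, which had the highest glutamatergic marker means. It was 10.56 and 10.57 on vehicle arrays 3 and 4, and 10.48 to 10.62 on the inhibitor arrays. In striatum labelled KO, with all arrays kept, the list's median was 0.06, and 13 of 14 members were positive. KO inhibitor array 34 had a list mean of 10.87 and a glutamatergic marker mean of 9.03, both the highest of the striatal arrays labelled KO. The part of carryover in this list was not tested.

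Nnat showed the largest rise. It codes for neuronatin, a small membrane protein of the endoplasmic reticulum with a role in calcium handling, and is an imprinted gene. Its log2 signal was 9.30, 10.26, 10.22, 9.37 and 9.47 on vehicle arrays 1 to 5 and 11.12, 11.31, 11.08, 11.00, 11.25 and 11.15 on inhibitor arrays 10 to 15. The 6 inhibitor arrays were tightly grouped, doubted or not, and the vehicle arrays were spread at a lower level. The difference was 1.43 ± 0.17 (2.69-fold, adjusted p = 0.00103), and 1.45 ± 0.21 without the doubted arrays. On the arrays labelled KO, Nnat lay between 10.44 and 11.38 with vehicle and between 10.69 and 11.09 with inhibitor, above all 5 WT vehicle arrays.

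Fam43a and Slc7a8 had the same form. Fam43a was 7.23, 7.05, 6.89, 6.72 and 7.35 on vehicle arrays 1 to 5 and 7.90, 7.93, 8.09, 7.96, 7.80 and 7.88 on inhibitor arrays 10 to 15, a rise of 0.88 ± 0.12 (adjusted p = 0.00316), and of 0.93 ± 0.15 without the doubted arrays. Slc7a8, a transporter of large neutral amino acids, was 7.76, 7.85, 7.63, 7.63 and 7.67 with vehicle and 8.09, 8.36, 8.08, 8.69, 8.35 and 8.36 with inhibitor, a rise of 0.61 ± 0.11 (adjusted p = 0.0203). For both genes every inhibitor array was above every vehicle array. In Slc7a8 the highest value was on doubted array 13, and without the doubted arrays the difference was 0.47 ± 0.11. Dgat2, the enzyme of the last step of triglyceride synthesis, rose by 0.63 ± 0.11, and Coch, which codes for the matrix protein cochlin, by 0.74 ± 0.14, both without overlap between groups. With the doubted arrays left out these rises were 0.62 ± 0.15 and 0.77 ± 0.17.

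Clspn showed the largest fall. It codes for claspin, an adaptor of the DNA replication checkpoint. Clspn signals (log2) were 6.80, 7.65, 7.75, 7.22 and 7.20 on vehicle arrays 1 to 5 and 5.47, 5.63, 5.64, 6.17, 6.28 and 5.91 on inhibitor arrays 10 to 15. The groups did not overlap, and the difference was -1.47 ± 0.20 (2.78-fold lower, adjusted p = 0.00316), and -1.74 ± 0.22 without the doubted arrays. A second, dimmer probe set of the gene differed by 0.02 ± 0.09, so the probe sets disagree. Arrays labelled KO lay at 5.43 to 6.42, below the WT vehicle arrays, whatever the treatment.

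Genes for secreted and matrix proteins were among the falls. Fst, which codes for follistatin, a binding protein that blocks activin, was 6.18, 6.46, 6.07, 6.23 and 5.95 on vehicle arrays 1 to 5 and 5.71, 5.48, 5.78, 5.50, 5.75 and 5.46 on inhibitor arrays 10 to 15. It fell by 0.56 ± 0.10 on the log2 scale (1.48-fold, adjusted p = 0.0202), and its second probe set differed by -0.73 ± 0.12. Col6a2, a chain of collagen VI, was 8.03, 7.96, 8.15, 8.11 and 8.31 with vehicle and 7.30, 7.65, 7.34, 7.69, 7.36 and 7.54 with inhibitor. Neither gene's groups overlapped. Col6a2 fell by 0.63 ± 0.10 (1.55-fold, adjusted p = 0.0141), with -0.53 ± 0.07 for its second probe set. Its partner chain Col6a1 differed by 0.46 ± 0.15 (adjusted p = 0.264). Of 15 tested fibroblast matrix genes 1 fell and none rose, where 0.0824% of all genes fell and 0.0989% rose. Ccdc80, a further secreted matrix protein, fell by 0.45 ± 0.09, with overlap between groups and 0.01 ± 0.10 for its second probe set. With the doubted arrays left out the differences were -0.52 ± 0.12 for Fst, -0.68 ± 0.12 for Col6a2 and -0.53 ± 0.10 for Ccdc80. Of the 33 genes 21 had more than one probe set: in 12 at least 1 other had the same sign with an unadjusted p under 0.05, and in 3 (Clspn, Ccdc80 and Prmt6) no other had the same sign.

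Genes of transmitter handling and release passed in single cases. Abat, the transaminase that degrades GABA, rose by 0.37 ± 0.07 (adjusted p = 0.0356), from 11.13 to 11.40 on vehicle arrays to 11.53 to 11.70 on inhibitor arrays. It was 1 of 16 tested genes of GABA and transmitter handling, of which none fell, and the list's median was 0.01. Over all genes 0.0989% rose and 0.0824% fell. Gad1 and Gad2, which make GABA, differed by 0.28 ± 0.06 (adjusted p = 0.0928) and 0.53 ± 0.13 (adjusted p = 0.113). Without the doubted arrays Abat rose by 0.39 ± 0.09 and Gad1 by 0.33 ± 0.08 (adjusted p = 0.0206), while Gad2 did not pass (0.53 ± 0.16, adjusted p = 0.0801). Slc32a1, which loads GABA into vesicles, differed by 0.41 ± 0.11 (adjusted p = 0.144), and passed without the doubted arrays at 0.54 ± 0.12 (adjusted p = 0.0136). Otof, a calcium sensor of vesicle fusion, fell by 0.49 ± 0.09, alone among 29 tested presynaptic genes. Ago4, an Argonaute protein that binds small RNAs, fell by 0.55 ± 0.10 with no overlap between groups, and Rnf144a, a ubiquitin ligase, by 0.37 ± 0.06. With the doubted arrays left out these 3 differences were -0.45 ± 0.12, -0.64 ± 0.12 and -0.42 ± 0.08.

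**Figure D3:**
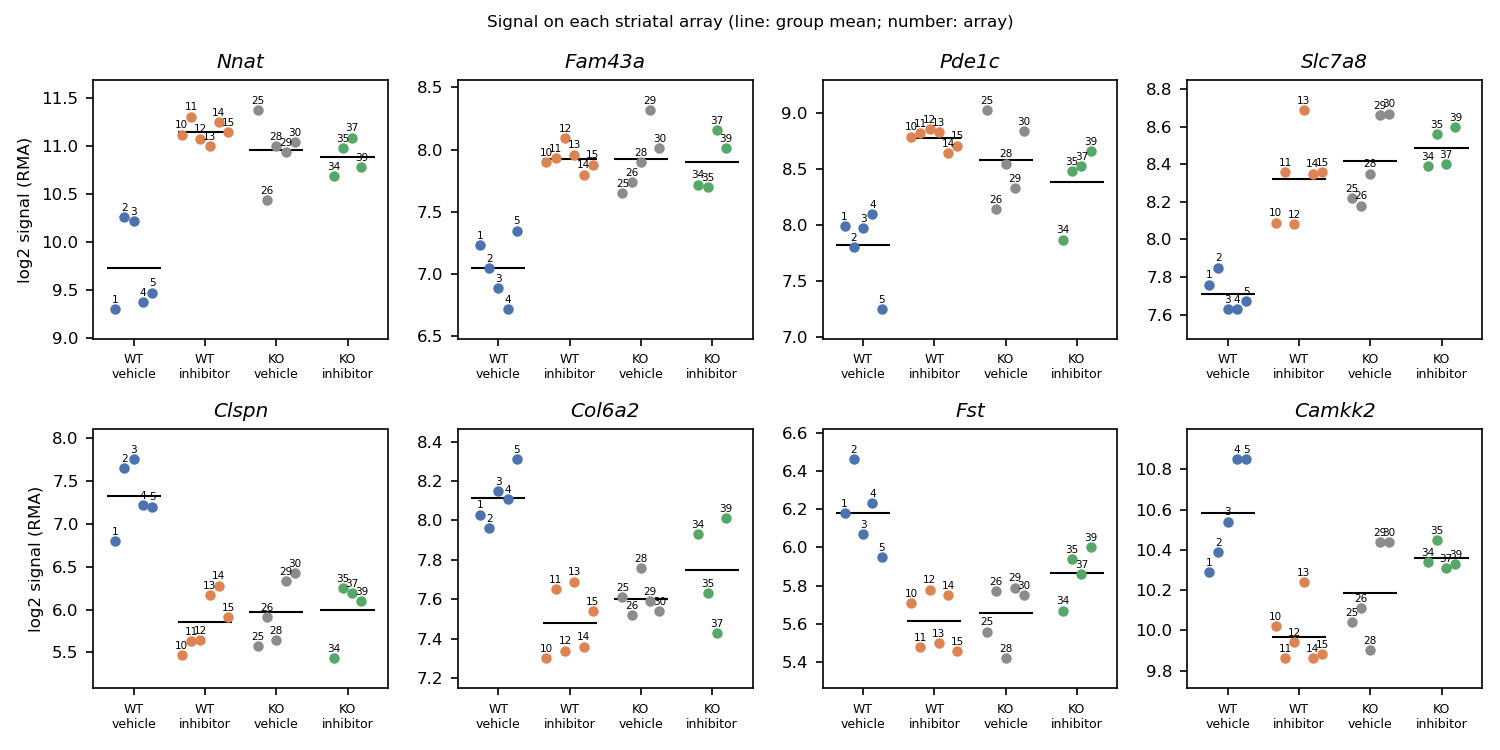
Log2 signal of 8 genes past the threshold on each striatal array, by group, with array numbers and group means as lines. For each of the 8 genes the 6 WT inhibitor arrays lie on one side of the 5 WT vehicle arrays. Nnat and Clspn on the arrays labelled KO also lie apart from the WT vehicle arrays.

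Not every gene of the 33 was alike on the 6 inhibitor arrays. Irak3, which codes for an inhibitor of Toll-like receptor signalling, was 4.50 to 4.83 on the vehicle arrays and 6.38, 6.24, 6.50, 5.79, 4.83 and 5.66 on inhibitor arrays 10 to 15. Inhibitor array 14 lay at the vehicle level, and the difference was 1.22 ± 0.25 (adjusted p = 0.0485) over all arrays and 1.70 ± 0.15 (adjusted p = 8.95e-06) without the doubted arrays. Sox17, a transcription factor of endothelium, was 6.53 to 6.83 with vehicle and 7.55, 7.60, 7.65, 7.36, 6.83 and 7.18 with inhibitor, again lowest on array 14. It rose by 0.73 ± 0.15 (adjusted p = 0.0485), and by 0.97 ± 0.09 without the doubted arrays.

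The same inhibitor effect was then read in the other groups. In striatum labelled KO, limma passed 0 of 18193 genes (0%), and in WT hippocampus likewise 0 (0%). The unadjusted p was below 0.05 for 257 genes in the former and 1948 in the latter. The hippocampal inhibitor group holds arrays 12 and 14, which crossed the limit of the chromosome 17 score. Without the doubted arrays both counts were again 0, with 227 and 1003 genes at an unadjusted p below 0.05. Of the 33 genes, 8 had the same sign in KO striatum and 10 in WT hippocampus, and their median change in the WT striatal direction was -0.08 and -0.04 there, against 0.61 in WT striatum. Neither difference is taken over an array of the WT striatal groups, though the striatal fits share their estimate of spread.

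The difference between striatal and hippocampal effects in WT was tested over all 42 arrays, and 39 genes passed (0.214%). Among them were 20 of the 33, which had been chosen for their striatal difference, a choice that favours such a result. Without the doubted arrays of both regions 785 genes passed. For Nnat the striatal effect exceeded the hippocampal one by 1.40 ± 0.24 (adjusted p = 0.00513), and for Fst the difference was -0.90 (adjusted p = 0.00513), with 0.34 in hippocampus. The difference between WT and KO striatal effects passed by limma for 0 genes (0%), while the unadjusted p was below 0.05 for 1346, so a genotype dependence of the 33 genes was not shown with all arrays. Without the doubted arrays 158 genes (0.868%) differed between genotypes, 13 of the 33 among them, and all 158 were among the genes that then passed in WT. This contrast holds the WT arrays that chose both sets of genes, and such a choice favours these overlaps. Any difference of the KO arrays from WT vehicle shares the 5 WT vehicle arrays with the comparison made here, so only levels are given, for 4 genes chosen after their values were seen. Nnat averaged 9.72 on WT vehicle, 11.15 on WT inhibitor and 10.96 on KO vehicle arrays, and Clspn 7.32, 5.85 and 5.97. Fam43a averaged 7.05, 7.93 and 7.92 in the same order, and Slc7a8 7.71, 8.32 and 8.41. In these 4 genes the WT vehicle group alone stood apart, and whether that is a feature of these 5 arrays was not tested.

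Without the 4 doubted arrays the comparison rested on inhibitor arrays 10, 11 and 12 against the 5 vehicle arrays, and 769 genes passed (4.23%), 567 higher (3.12%) and 202 lower (1.11%). They included 32 of the 33 genes, in the same direction, and 737 others. Gask1b was the exception (-0.62 ± 0.18, adjusted p = 0.06). With the 3 WT arrays left out but KO vehicle 25 kept, 299 genes passed. On chromosome 17 lay 27 of the 769 genes, and none of the 33. The median size of the 769 changes was 0.47. Fitted without the doubted arrays of both regions, 342 of them had the same sign in striatum labelled KO and 250 in WT hippocampus, with medians in the WT striatal direction of -0.01 and -0.03.

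Nts, which codes for the neuropeptide neurotensin, showed the largest difference. Its log2 signal was 6.34 to 7.65 on the vehicle arrays and 9.94, 10.32, 10.55, 8.27, 7.32 and 9.60 on inhibitor arrays 10 to 15. Inhibitor arrays 10, 11, 12 and 15 were far above the vehicle range, array 13 was between, and array 14 lay within it. The difference was 2.48 ± 0.65 (adjusted p = 0.151) over all arrays, and 3.41 ± 0.25, or 10.64-fold (adjusted p = 8.61e-07), without the doubted arrays. In striatum labelled KO, array 25 with vehicle had 10.48, and the other 8 arrays had 5.94 to 6.70.

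The promoter of Nts is shown as RefSeq gives it for build GRCm38.p6, chr10:102490369-102490668 on the minus strand, from 250 bases before to 50 bases after the start, because it held motifs for both CREB and AP-1. Capitals mark TGACG, the core of the cAMP response element, and TGANTCA, the AP-1 motif, both searched on both strands. The first letter of the cAMP response element core lies at position -166 from the start. The promoter of Nnat, at chr2:157559828-157560127 on the plus strand, is shown beside it as that of the gene with the largest rise over all arrays, and held neither motif.
Nts: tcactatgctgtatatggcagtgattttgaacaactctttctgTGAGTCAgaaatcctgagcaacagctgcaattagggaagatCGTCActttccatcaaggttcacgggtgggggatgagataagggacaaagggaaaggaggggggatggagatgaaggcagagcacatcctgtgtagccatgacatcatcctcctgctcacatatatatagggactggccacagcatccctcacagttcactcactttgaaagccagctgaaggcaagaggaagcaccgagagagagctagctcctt
Nnat: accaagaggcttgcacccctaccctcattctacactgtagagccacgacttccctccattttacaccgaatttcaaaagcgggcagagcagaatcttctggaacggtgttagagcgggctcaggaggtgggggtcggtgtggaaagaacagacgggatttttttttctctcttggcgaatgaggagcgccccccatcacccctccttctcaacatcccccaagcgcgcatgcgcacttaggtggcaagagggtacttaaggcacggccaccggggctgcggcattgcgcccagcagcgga
Of 14452 tested genes with a promoter window, 30% held TGACG, 7.54% held TGANTCA and 2.92% held the full palindrome of the cAMP response element. Of the 33 genes 25 had a window: TGACG was in 5 of 14 genes that rose and 1 of 11 that fell, TGANTCA in 1 of each, and the palindrome in none. A match describes these letters only, and its absence says nothing of binding outside the window.

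Further genes were, like Nts, lowest of the inhibitor group on array 14. Snx31, a sorting nexin gene, was 4.04 to 4.66 on the vehicle arrays and 7.16, 6.68, 6.85, 6.40, 4.47 and 5.69 on inhibitor arrays 10 to 15. Lgi2, which codes for a secreted leucine-rich repeat protein, was 8.84 to 9.47 with vehicle and 11.07, 11.33, 11.24, 10.30, 9.03 and 10.44 with inhibitor. In both, arrays 13 and 15 were raised and array 14 lay within the vehicle range. The differences were 1.84 (adjusted p = 0.146) and 1.47 (adjusted p = 0.135) over all arrays, and 2.53 ± 0.16 (adjusted p = 3.80e-07) and 2.11 ± 0.17 (adjusted p = 3.66e-06) without the doubted arrays. Gpr153, an orphan receptor gene, rose by 1.93 ± 0.13 and Tgfb1, which codes for the cytokine TGF-beta 1, by 1.44 ± 0.13 in that fit. Over all arrays Gpr153 and Tgfb1 differed by 1.22 and 0.98, and neither passed.

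For 3 genes that fell in this fit, the doubted arrays lay near or above the vehicle level. Ryr1, a calcium release channel of the endoplasmic reticulum, was 8.24 to 9.00 on the vehicle arrays, 6.60, 6.61 and 6.18 on inhibitor arrays 10, 11 and 12, and 9.33, 9.93 and 9.08 on inhibitor arrays 13, 14 and 15. Hpcal4, a neuronal calcium sensor, was 11.85 to 12.26 with vehicle, 10.50, 10.65 and 10.48 on the first 3 inhibitor arrays and 12.08, 12.31 and 11.81 on the others. Nr4a1, an early response gene of the orphan nuclear receptor family, was 9.05 to 10.06 with vehicle, 7.74, 7.91 and 8.27 on inhibitor arrays 10, 11 and 12, and 9.49, 10.00 and 10.37 on arrays 13, 14 and 15. For Ryr1 the doubted arrays were above every vehicle array, against the direction of the other 3. The differences without the doubted arrays were -2.19 ± 0.26 for Ryr1, -1.50 ± 0.10 for Hpcal4 and -1.44 ± 0.20 for Nr4a1. Over all arrays they were -0.70, -0.74 and -0.45, with adjusted p-values of 0.846, 0.429 and 0.874.

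**Figure D4:**
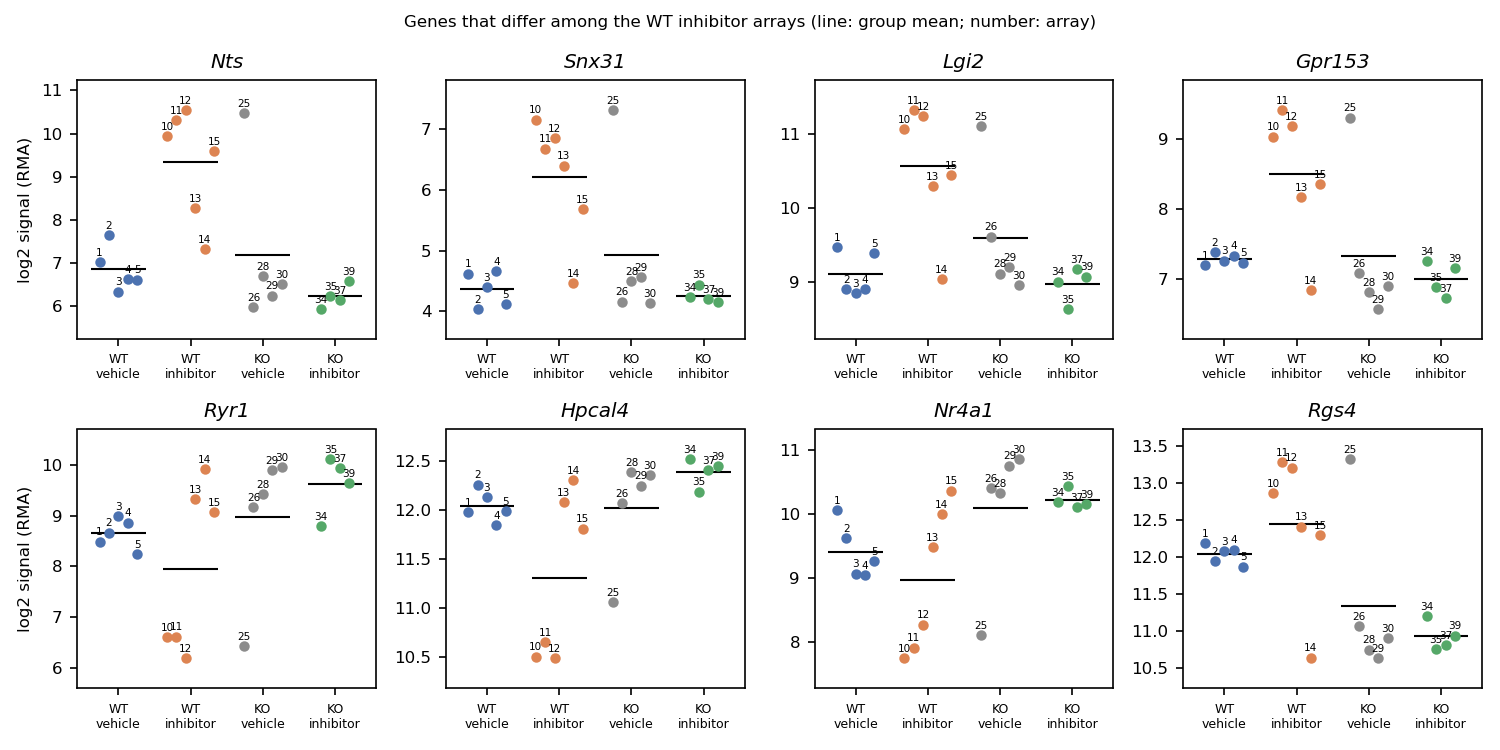
Log2 signal of 8 genes, chosen after their values were seen, on each striatal array by group, with array numbers and group means as lines. In all 8 genes WT inhibitor arrays 10, 11 and 12 and KO vehicle array 25 lie on the same side of the other KO arrays (for Nts at 9.94 to 10.55, against 5.94 to 6.70).

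The array labelled KO vehicle 25 differed from its own group in the genes that passed without the doubted arrays. It was set against the other 4 striatal KO vehicle arrays, which enter the WT comparison only through the shared estimate of spread. Genes with little spread among those 4 therefore passed more readily. In 688 of the 769 genes (89.5%) it lay beyond all 4 in the direction of the WT difference, and in 11 genes (1.43%) beyond them in the opposite direction. Over all 18193 genes these shares were 33.3% and 11.9%. Snx31 was 7.32, Lgi2 11.11, Ryr1 6.42 and Nr4a1 8.11 on array 25. Whether arrays 13, 14, 15 and 25 carry the wrong label was not tested, and no array was moved to another group.

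Projection neuron genes passed in no case over all arrays. Of 10 tested direct pathway markers 8 were positive (median 0.13), of 7 indirect pathway markers 4 (median 0.01), and of 23 shared markers 18 (median 0.15), where 49.8% of all genes were positive. Pdyn, the dynorphin precursor of the direct pathway, averaged 8.03 ± 0.16 (SD, n = 5) and 8.85 ± 0.27 (n = 6), a difference of 0.82 ± 0.18 (SE, adjusted p = 0.0791), and of 0.65 ± 0.17 (adjusted p = 0.0432) without the doubted arrays. Without them Plxdc1 (-1.07 ± 0.17) and the kainate receptor gene Grik3 (-0.42 ± 0.11), both on the indirect pathway list, fell. On the shared list 4 genes rose, where 3.12% of all genes rose in that fit. Among the 4 were Actn2 (0.84 ± 0.20), which codes for an actin cross-linker of dendritic spines, and Kcnip2 (0.56 ± 0.11), a potassium channel subunit. Since these are bulk samples, a change in the number of cells of a type and a change in RNA per cell cannot be told apart.

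Genes that follow neuronal activity did not move together. Of 30 early response genes 13 were positive over all arrays (median -0.04) and none passed. In the fit without the doubted arrays, where 3.12% of all genes rose and 1.11% fell, 3 fell and 2 rose. Egr1, a zinc finger transcription factor, fell by 0.66 ± 0.11, Homer1 by 0.31 ± 0.08 and Nr4a1 as given above, while Gadd45b rose by 0.91 ± 0.09 and Jun by 0.44 ± 0.12. On the list of CREB family and feedback genes Ppargc1a, a transcriptional coactivator, rose (0.81), and Crtc1, a coactivator of CREB, fell (-0.39), as did Nr4a1, which is also on that list. Of its 18 genes 14 were negative in this fit (median -0.04), against 6 over all arrays (median 0.07). ERK feedback genes, which are induced by and restrain the MAP kinase ERK, had a median of -0.09 over all arrays with no member past the threshold. With the doubted arrays left out 4 of 15 fell and none rose: Spred1 (-0.72 ± 0.10), Spred2 (-0.58 ± 0.10), Spred3 (-0.90 ± 0.17) and Etv5 (-1.03 ± 0.17). Vgf, a neuropeptide precursor induced by activity, fell by 1.39 ± 0.15. Over all arrays Spred1 differed by -0.36, Spred3 by -0.21, Etv5 by -0.44 and Vgf by -0.49, none past the threshold.

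Vascular genes had positive differences on nearly the whole list. Over all arrays 14 of 15 tested genes of endothelium and pericytes were positive (median 0.29), and Sox17 passed, where 0.181% of all genes passed. With the doubted arrays left out 10 of 15 genes on the list rose and none fell (median 0.53), where 3.12% of all genes rose. These included Rgs5 of pericytes (0.97 ± 0.09), the tight junction gene Cldn5 (0.67 ± 0.11), the angiopoietin receptor gene Tek (0.95 ± 0.20) and Vwf, the von Willebrand factor (1.16 ± 0.25). The mean of the list was 7.55 to 7.73 on the vehicle arrays, 8.16, 8.18 and 8.23 on inhibitor arrays 10, 11 and 12, and 7.76, 7.65 and 7.83 on arrays 13, 14 and 15. On KO vehicle array 25 it was 8.14, above the 7.57 to 7.76 of its group. The fibroblast matrix list was mixed with the doubted arrays left out: of 15 genes 7 were positive and 8 negative (median -0.03). On that list 3 genes rose and 1, Col6a2, fell, where 3.12% of all genes rose and 1.11% fell. Those that rose were Col4a1 (0.71 ± 0.14), Col4a2 (0.73 ± 0.13) and Fn1 (0.69 ± 0.08).

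Oxidative phosphorylation genes had small differences, nearly all positive. Over all arrays 69 of 72 were positive (median 0.10) and none passed. In the fit without the doubted arrays, where 3.12% of all genes rose, 10 of the 72 rose and none fell (median 0.18). Atp5g1 (0.45 ± 0.07) and Uqcr11 (0.43 ± 0.06) were among the 10. The list's mean was 11.33 to 11.45 on the vehicle arrays, 11.55, 11.59 and 11.60 on inhibitor arrays 10, 11 and 12, and 11.37, 11.41 and 11.46 on arrays 13, 14 and 15. It was lowest on vehicle array 4, the array with the highest Gapdh difference, whose part in the result was not tested. In striatum labelled KO, with array 25 kept, 7 of the 72 were positive. The list's mean was 11.55 on KO vehicle array 25, against 11.33 to 11.45 on the other arrays of its group.

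Regulators of G protein signalling and clock genes changed in part, only with the doubted arrays left out, where 3.12% of all genes rose and 1.11% fell. In that fit Rgs4, a brake on Gi- and Gq-coupled receptors, rose by 1.08 ± 0.12 and Rgs8 by 0.49 ± 0.12. Rgs4 was 12.86 to 13.28 on the first 3 inhibitor arrays, 12.41 and 12.30 on arrays 13 and 15 and 10.64 on array 14, below every vehicle array. Of 16 clock genes the core activator Arntl fell by 0.75 ± 0.11, and Ciart (1.38 ± 0.12) and Tef (0.32 ± 0.07) rose. Gucy1a1, a subunit of the nitric oxide receptor that makes cGMP, rose by 0.72 ± 0.12, and Inhba, the activin subunit gene, by 1.07 ± 0.11. Over all arrays none of these passed.

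**Figure D5:**
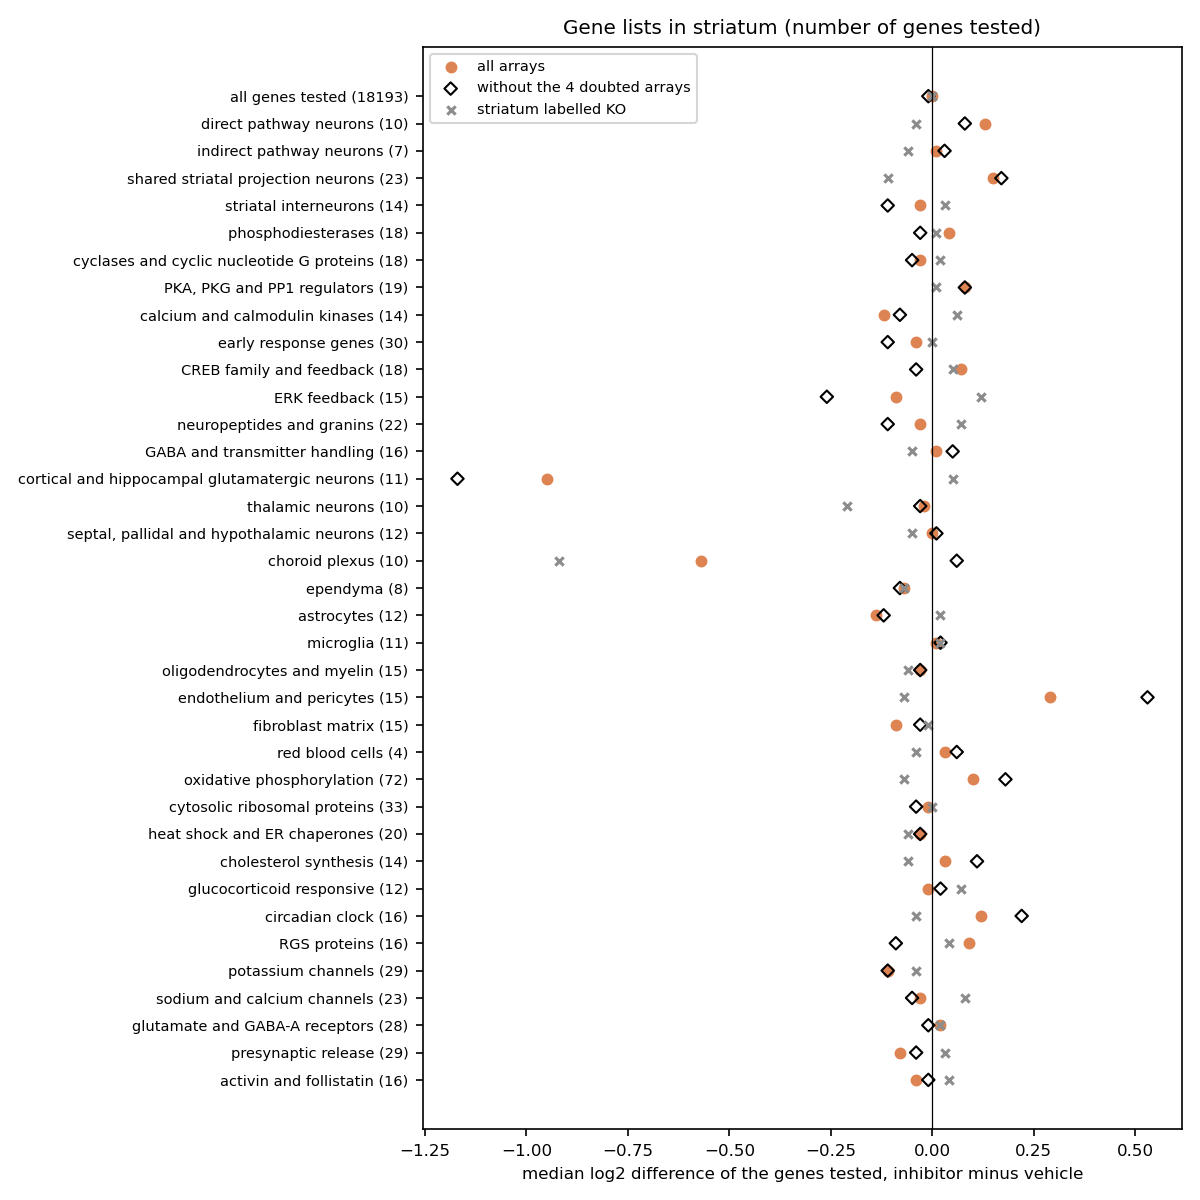
Median log2 difference, inhibitor minus vehicle, of each gene list (number of genes tested in brackets) in WT striatum with all arrays, in WT striatum without the 4 doubted arrays, and in striatum labelled KO. Endothelium and pericytes have the highest median in WT striatum (0.29 and 0.53), and glutamatergic markers the lowest (-0.95 and -1.17).

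Markers of astrocytes, oligodendrocytes and microglia had medians closer to zero than the vascular list. Astrocyte markers were negative for 11 of 12 (median -0.14), oligodendrocyte markers for 10 of 15 (median -0.03), and microglial markers for 5 of 11 (median 0.01). Choroid plexus markers had a median of -0.57 over all arrays and 0.06 without the doubted arrays. None of these lists had a member past the threshold in either fit. The lower glutamatergic marker level on the inhibitor arrays remained without the doubted arrays (median -1.17 over the 11 markers), and its part in the 33 and the 769 genes was tested only as a covariate, with 11 and 2453 genes passing.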

How the data were processed

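The log2 signals that the authors deposited cover 45101 probe sets and come from RMA, as the submitters' processing notes name it. Because RMA equalizes the distribution of signals, it hides any difference in total RNA. Software versions were not given in the sources used here. Array medians lay between 6.05 and 6.12. After removal of 64 control probe sets, 34945 with a single gene were used (932 listed several genes, 9160 none), and 34741 were matched to RefSeq names of GRCm38.p6.

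Differences were fitted in R 4.3.3 by limma 3.58.1, using lmFit and eBayes with two-sided p-values adjusted over 18193 genes (Benjamini-Hochberg). The 4 striatal groups shared a fit, and regions were compared over 42 arrays in 8 groups. Single values per array were compared by exact permutation tests. Genes named are Pde10a, up to 20 rises and 20 falls past the threshold, from every list up to 3 members of lowest p, and markers used to describe the arrays (Slc17a7 and Neurod6 among them); others were chosen after their values were seen. Members and lists were chosen with earlier results of these data known. In data simulated for this comparison over 18193 genes, 73.5% of changes of log2 0.5 and 96.0% of log2 1 were called, with a mean of 9.75 unchanged genes called per run. The simulated noise was independent between genes and arrays. It held no differences that many genes of an array share, so these rates need not hold for the real arrays. The number of arrays limits the precision. Alternatives covered normalization to one median, probe set choice, filters, covariates and left-out arrays.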

Additional observations from a re-analysis of the deposited data

Results flagged for a closer look

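Of 258 groups of values examined, 14 held an array far from the rest of its group, and chance alone gives such an array in about 1 in 20 groups. Vehicle array 4 had a Gapdh 3' minus 5' difference of 1.05 (0.18 to 0.28 on the others) and a mean correlation with its group of 0.9895. It also had the lowest vehicle signal of Msmo1, a cholesterol synthesis gene (9.46, against 9.79 to 9.91). Inhibitor array 13 was high for Fezf2, a transcription factor of deep-layer cortical neurons (7.18, against 5.74 to 6.14), and for the syntaxin gene Stx1a (9.93), and low for Aldh1l1 of astrocytes (8.44) and Ndufb3 of complex I (10.33). Inhibitor array 11 was high for the choroid plexus genes Kcnj13 (9.34) and Aqp1 (7.50). Inhibitor array 15 had the highest Per1 (9.85). Vehicle array 2 was low for Avp (4.87) and Cry2 (9.08) and high for Uqcr11 (11.36), and vehicle array 3 was low for Rgs5 (10.15).

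The inhibitor effect differed between WT striatum and WT hippocampus in 20 of the 33 genes by limma's test of the difference itself. The striatal minus hippocampal difference was positive for Nnat (1.40), Irak3 (1.24), Pde1c (1.20), Sox17 (0.88), Fam43a (0.84), Ppp1r2 (0.70), Dgat2 (0.66), Slc7a8 (0.66), Avpi1 (0.60), Wdr17 (0.58), Prmt6 (0.55), Abat (0.42), Tmem68 (0.39) and Ppp2r5b (0.38). It was negative for Clspn (-1.30), Ptprv (-0.91), Fst (-0.90), Otof (-0.81), Ago4 (-0.48) and Rnf144a (-0.44). These genes were chosen for their striatal difference.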

How the results depend on the processing

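The count of 33 genes was 30 with an intensity trend, 32 with arrays shifted to one median and 32 with the Gapdh difference as a covariate. It was 20 with only the groups compared, 299 with all 42 arrays, 195 with array weights, 18 with every probe set tested, 19 with averaged probe sets and 20 among genes above the median signal. Without the doubted arrays it was 769, 86 with each group's highest-Gapdh array left out, without that of lowest group correlation 6, and with the glutamatergic covariate 11. Chosen after seeing the data, leaving out WT inhibitor 13, 14 and 15 alone gave 299, leaving out KO vehicle 25 gave 67, leaving out vehicle 4 with the doubted arrays 706, and the glutamatergic covariate without the doubted arrays 2453. Leaving out single arrays gave 4 to 73. The genotype difference (0 genes) was 43 with all 42 arrays, 1 with array weights, 158 without the doubted arrays, and 0 to 1 without single arrays. The region difference (39 genes) was 785 without the doubted arrays of both regions, 19 to 154 without single arrays, and 44 with the array number as a replicate block. Same-numbered arrays of striatum and hippocampus were weakly correlated: of 20 pairs 5 had a correlation over 0.1. A correlation between different tissues cannot settle whether they come from the same mouse, which the labels do not state. The glutamatergic difference ranged from -1.06 to -0.65 without single arrays, with p = 0.019 without vehicle 4 and p = 0.0317 without inhibitor 13 (exact permutation tests), and was -0.51 (p = 0.186) for the median of the markers. The Gapdh difference ranged from -0.11 to 0.12, positive only without vehicle 4 and past no threshold. No other of these results changed direction. The cause of these movements was not tested.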
